A study of Mus musculus with 12 samples.

Results

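Glutamate, GABA and glycine are the fast transmitters of the retina, and the genes of their receptors are described here: 45 genes of the 54367 in the deposited tables. They were chosen by symbol, without use of any measured value, and comprise 4 AMPA, 7 NMDA and 5 kainate receptor subunits, 8 metabotropic glutamate receptors, 13 GABA-A subunits, 3 GABA rho subunits and 5 glycine receptor subunits. All 45 symbols were found in both tables.

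Photoreceptors release glutamate in darkness. ON bipolar cells read it through the metabotropic receptor encoded by Grm6, which closes a cation channel, whereas OFF bipolar cells read it through AMPA and kainate channels. Amacrine and horizontal cells answer with GABA and glycine, which open chloride channels on bipolar, amacrine and ganglion cells. The rho subunits form a slowly closing GABA channel for which bipolar cell terminals are known.

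The retinas came from wild-type C57BL/6 mice aged 8 to 12 weeks. In each mouse the right eye received 4 burns from a 532 nm laser, 75 µm wide and 0.1 s long, and the left eye was left unlasered. Poly(A) RNA was sequenced from 4 groups of 3 libraries, namely lasered and control retinas on day 7 and lasered and control retinas on day 3. Controls are fellow eyes of lasered animals, and no separate uninjured animals are among the samples analysed. The labels do not say whether the same number marks the 2 eyes of a mouse, so p-values describe the spread between the libraries at hand, which may be technical. The whole retina was sampled, so fewer cells of a type and less RNA per cell cannot be told apart.

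A stretch of coding sequence shows what the members share and where they differ. Printed first are 4 ionotropic glutamate receptor subunits, chosen to span the base composition on which several results below turn, with a GC content of the longest transcript of 36.8% in Gria2, 37.9% in Grik2, 48.5% in Gria1 and 61.7% in Grik5. The 7 codons in capitals encode the same amino acids in all 16 ionotropic glutamate receptor genes, in the segment known to line the channel gate. The sequences are from the GENCODE M21 mouse transcripts (GRCm38, the mm10 build), 5′ to 3′ on the coding strand, each 42 bases long.
Gria2: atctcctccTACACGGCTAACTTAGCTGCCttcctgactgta
Grik2: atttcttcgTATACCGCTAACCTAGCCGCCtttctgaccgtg
Gria1: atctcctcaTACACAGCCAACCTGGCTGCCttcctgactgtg
Grik5: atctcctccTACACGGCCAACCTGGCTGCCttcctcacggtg

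The same amino acids are thus written with different bases. Over the whole coding sequence, the share of G and C at the last position of the codon was 48.0% in Gria2 and 49.0% in Grik2. It was 64.5% in Gria1 and 80.4% in Grik5. Within the capitals, 4 of the 7 codons end in G or C in Gria2 and in Grik2, 5 in Gria1 and 6 in Grik5.

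The second set shows 3 subunits of the chloride channels in the same way. Its 7 codons in capitals encode amino acids shared by 17 of the 21 GABA and glycine receptor genes, in the membrane segment known to line the pore. Glrb and the 3 rho genes carry other residues there.
Gabra2: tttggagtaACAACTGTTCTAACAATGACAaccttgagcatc
Gabrd: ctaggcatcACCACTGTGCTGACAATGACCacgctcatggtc
Glra1: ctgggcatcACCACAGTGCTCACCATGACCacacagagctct
Among the capitals, 1 of 7 codons ends in G or C in Gabra2, 5 in Gabrd and 6 in Glra1. The GC content of the longest transcript, untranslated parts included, was 38.4% for Gabra2, 54.7% for Gabrd and 52.7% for Glra1. Over the 45 genes it ran between 35.2% for Glra3 and 65.0% for Grin2d.

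Levels are the authors' deposited signal per gene, which is scaled for gene length and library size. Whole reads recovered from the values came to between 22683095 and 29487397 per library on day 7 and between 8738241 and 11879990 on day 3, over genes with matching annotation. The days stand in separate tables, which were normalised separately.

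The members did not hold the same place in both tables, and the gap followed base composition. Grik5, a high-affinity kainate subunit, averaged 94.8 ± 11.7 in day 7 controls and 0.403 ± 0.136 in day 3 controls (SD, n = 3 each). Grin1, the obligatory NMDA subunit, averaged 45.2 ± 7.13 in day 7 controls and 0.706 ± 0.0697 in day 3 controls. In the opposite direction, Gria2, the subunit that makes AMPA channels nearly impermeable to calcium, averaged 0.544 ± 0.258 in day 7 controls and 19.8 ± 5.47 in day 3 controls.

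Of the 22 members with a GC content under 45%, 1 was higher in day 7 controls, and the median log2 gap was -1.60. All 7 members at 55% or more were higher in day 7 controls, with a median gap of 3.44. Across the 45 members the gap and the GC content had a Pearson r of 0.862, and across the 17611 genes that averaged 1 or more in the 12 libraries r was 0.611. With the logarithm of the exon length of the gene r was -0.152 over the members and 0.255 over the 17611 genes. These are descriptions over genes that share the same 6 control libraries. Age of the injury, table and the making of the libraries cannot be told apart in this gap, so differences in level between the tables are given as descriptions, here and below, with no test.

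**Figure D1:**
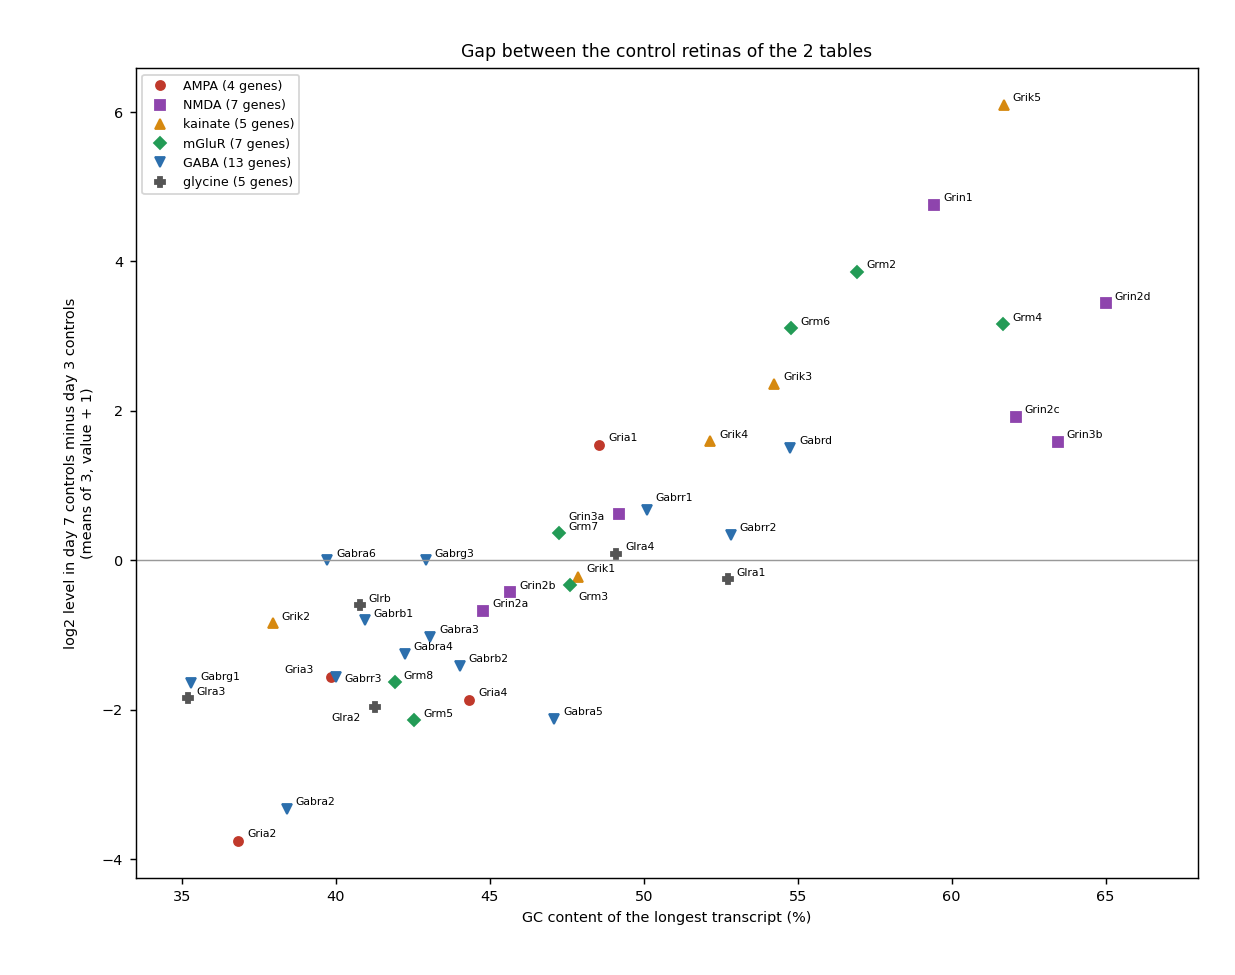
Each point is one of 41 receptor genes, with the GC content of its longest transcript on the x axis and the log2 gap in level, day 7 controls minus day 3 controls (means of 3 libraries, value + 1), on the y axis. The 7 genes at 55% or more lie above 0, and the genes under 45% lie below 0 apart from Gabra6 and Gabrg3, which are level between the tables.

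Whether lasering went with a different receptor gene level was asked within each day. Genes that averaged 1 or more in the 6 libraries of a day were fitted with limma on log2(value + 1), a scale that understates the change of low genes. Of the 45 members, 29 were fitted on day 7 and 29 on day 3. The 16 left out on day 7 were Gria2, Gria3, Grin2a, Grin2b, Grik2, Grm3, Grm5, Gabra2, Gabra4, Gabra5, Gabra6, Gabrb1, Gabrb2, Gabrg1, Gabrg3 and Glra3, with GC contents between 35.2% and 47.6%. Among the 16 left out on day 3 were all 7 NMDA subunits, Grik3, Grik4, Grik5, Grm2, Grm3, Grm4, Gabra6 and Gabrg3.

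No receptor gene passed the threshold of an adjusted p of 0.05 on either day. On day 7, 0 of 29 members were called, where 0.244% of the 15592 genes fitted were called. On day 3, 0 of 29 were called, where 0.149% of 16786 genes were. The smallest adjusted p of a member was 0.9998 on day 7 and 0.224 on day 3, and 0 members had an unadjusted p under 0.05 on either day as deposited. Of all 15592 genes on day 7, 490 had such a p with higher and 124 with lower values in lasered retinas. Of all 16786 on day 3, 3476 higher and 385 lower did, with a median difference of 0.16 over all genes. At this cutoff a count of 0 was near the share of the whole table on day 7. On day 3 as deposited it lay below that share. The count of members depended on the scaling on day 3. After quantile normalisation 7 members had such a p, all lower in lasered retinas, beside 1708 lower and 1817 higher over all genes. After median-of-ratios rescaling 5 did, all lower, beside 1433 lower and 2044 higher over all genes. With GC trends removed, 3 did, all lower, beside 1422 lower and 1951 higher over all genes. At the adjusted threshold, 0 calls among 29 genes is near what the whole tables show.

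The differences were small on day 3 and less certain on day 7. On day 7 the log2 differences ran between -0.81 and 0.33, and 19 of the 29 intervals at the 95% level lay within 1 log2 unit of 0. On day 3 they ran between -0.41 and 0.43, and all 29 intervals lay within 1 log2 unit. On day 3, 12 of the fitted members were higher and 17 lower in lasered retinas as deposited, 5 and 24 after quantile normalisation, and 6 and 23 after median-of-ratios rescaling. On day 7, 19 were higher and 10 lower as deposited, and 13 and 16 after either rescaling. The median difference of the fitted members was 0.05 on day 7, beside 0.06 over all genes fitted. On day 3 it was -0.06 for the members, beside 0.16 over all genes fitted.

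Groups without overlap were also counted among the fitted members. On day 7 lasered retinas lay wholly above controls in 0 of 29 members, where 6.78% of all genes did, and wholly below in 2, or 6.90%, where 2.11% did. On day 3 they lay wholly above in 3 of 29 members, or 10.3%, where 27.7% of all genes did, and wholly below in 2, or 6.90%, where 3.82% did. The 2 members below on day 7 were Grin2d and Grm4, and the 2 below on day 3 were Grm6 and Glra4. The 3 above on day 3 were Gria1, Glrb and Grik2.

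**Figure D2:**
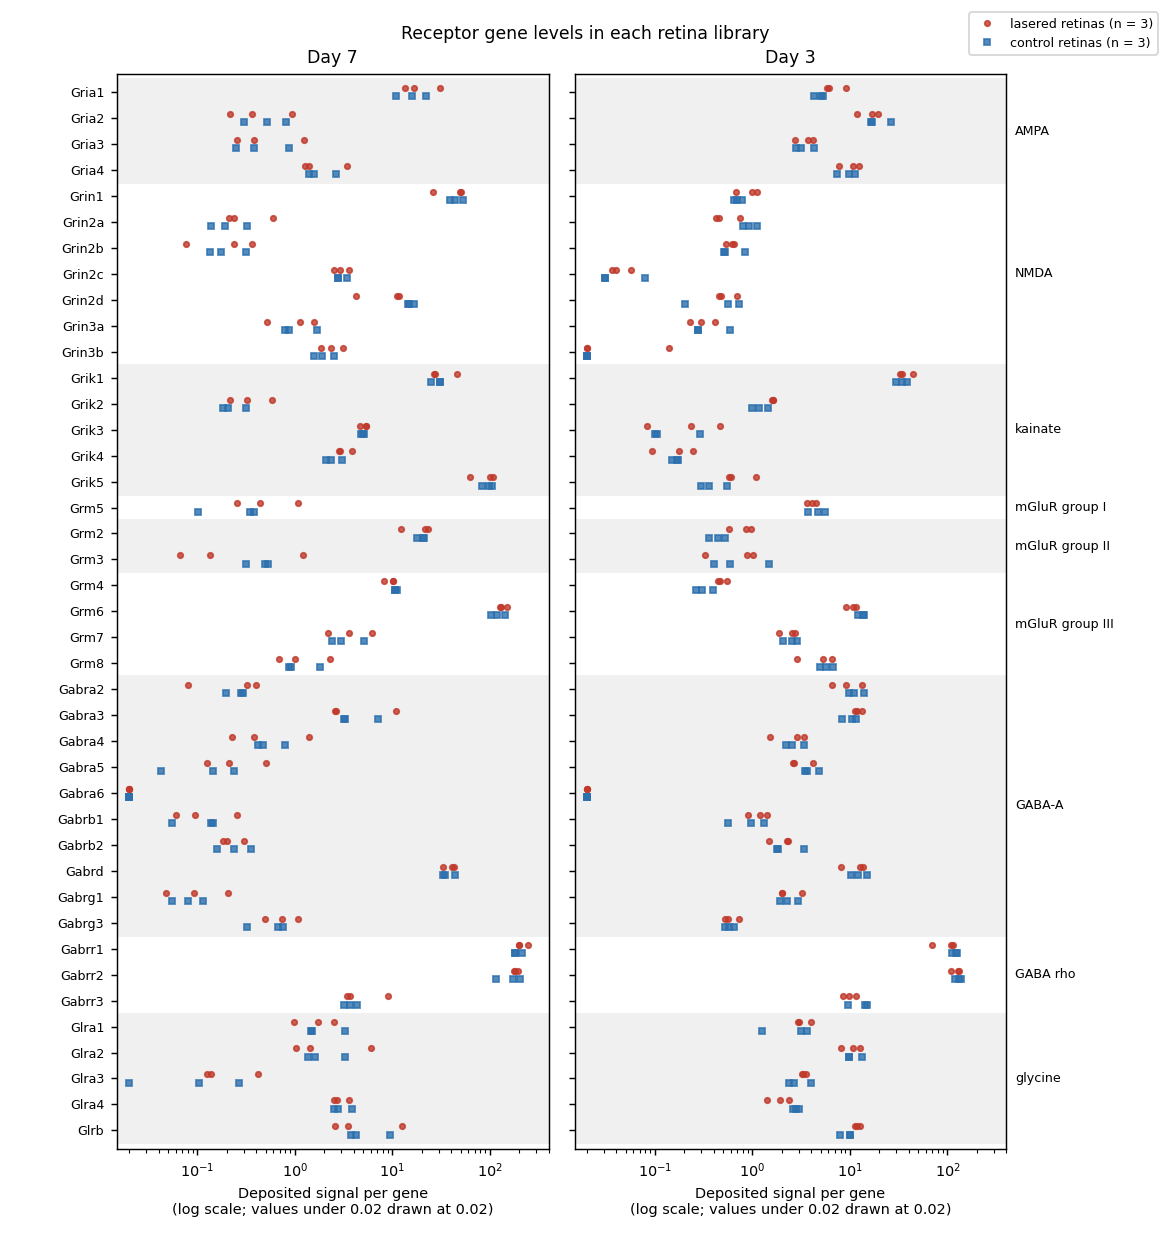
The deposited signal of 41 of the receptor genes is plotted per library on a log scale, for day 7 on the left and day 3 on the right, with lasered retinas as red circles and control retinas as blue squares (n = 3 each). The groups overlap in most genes on both days, while the genes themselves range over several orders of magnitude.

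**Figure D3:**
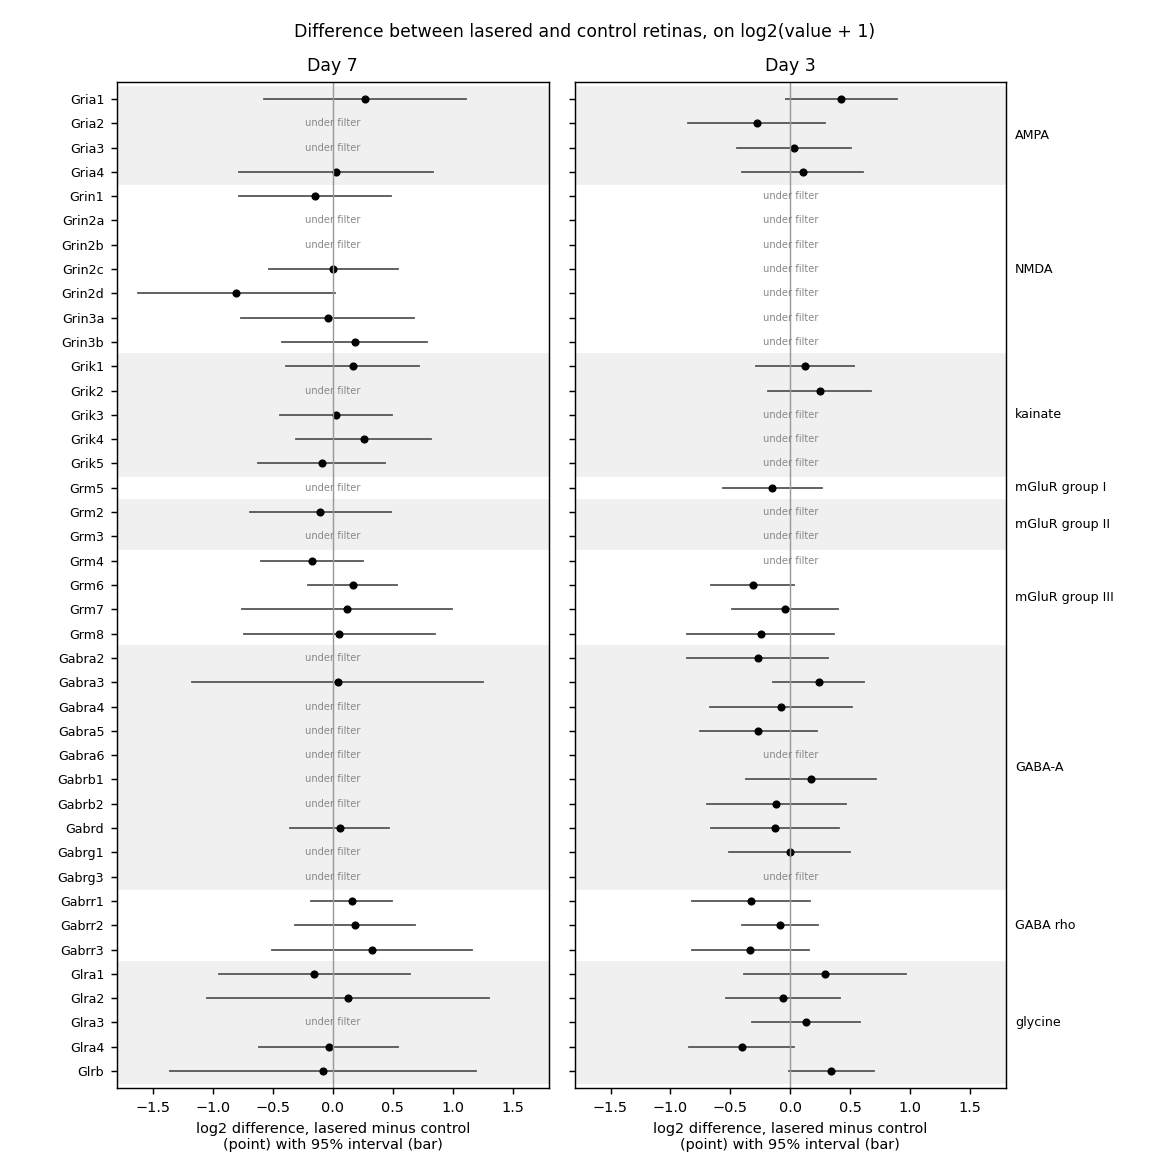
Points are log2 differences of the same genes, lasered minus control, on log2(value + 1), with 95% intervals from limma as bars, for day 7 on the left and day 3 on the right, and genes left out for low values are marked as under the filter. All day 3 intervals lie within 1 log2 unit of 0, and on day 7 those of Glrb and Gabra3 are among the widest.

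The AMPA subunits carry most fast excitation onto OFF bipolar, amacrine and ganglion cells. Gria1 stood at 13.3, 30.9 and 16.5 in lasered retinas on day 7, against 10.81, 22.0 and 15.9 in control retinas. Its day 3 values were 9.18, 5.78 and 6.12 in lasered retinas, against 5.04, 4.31 and 5.32 in control retinas. The groups overlapped on day 7, and on day 3 every lasered library lay above every control.

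The log2 difference of Gria1 was 0.27 ± 0.36 (SE, adjusted p = 0.9998) on day 7 and 0.43 ± 0.20 (adjusted p = 0.246) on day 3. Without lasered replicate 2, the day 7 value was -0.07. Without lasered replicate 1, the highest library, the day 3 value was 0.24.

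Gria2 had 11.9, 16.9 and 19.4 in lasered retinas on day 3, against 16.5, 16.7 and 26.1 in control retinas. The groups overlapped, with a log2 difference of -0.28 ± 0.24 (adjusted p = 0.525). On day 7 it was not fitted and lay between 0.217 and 0.924 in lasered retinas and between 0.2997 and 0.814 in control retinas. Gria4 differed by 0.03 on day 7 and 0.10 on day 3, and Gria3 by 0.03 on day 3.

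Taken as a share of the 4 AMPA genes, Gria2 made up 37.7%, 44.9% and 46.7% in lasered retinas on day 3, against 51.4%, 49.8% and 55.5% in control retinas. These shares did not overlap. On day 7 Gria1 made up 87.8%, 84.7% and 89.1% in lasered retinas, against 84.8%, 83.5% and 86.5% in control retinas, which overlapped. A share in signal counts RNA per length of gene, and shares of the 2 tables are not comparable because of the gap with base composition.

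NMDA receptors pair the obligatory subunit of Grin1 with subunits of the Grin2 or Grin3 genes. Grin2d, a subunit known for slowly closing channels, had the lowest unadjusted p of a member on day 7. It stood at 11.7, 4.23 and 11.2 in lasered retinas, against 16.6, 14.8 and 14.5 in control retinas. All 3 lasered libraries lay below the controls, and replicate 2 lay far below the other two.

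The log2 difference of Grin2d on day 7 was -0.81 ± 0.35, with a 95% interval between -1.63 and 0.02 and an unadjusted p of 0.0535 by limma. It was -0.39 without lasered replicate 2, so this library set the size of the difference. The gene is carried on chromosome 7 (45831883 to 45878378, mm10) and has the highest GC content of the members. It was not fitted on day 3 and lay between 0.460 and 0.696 in lasered retinas and between 0.205 and 0.728 in control retinas.

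Grin1 had 50.4, 26.2 and 49.6 in lasered retinas on day 7, against 43.7, 38.9 and 53.0 in control retinas. Lasered replicate 2 was again the lowest library, and the groups overlapped, with a log2 difference of -0.15 ± 0.27. Grin2c, Grin3a and Grin3b differed by 0.01, -0.04 and 0.18 on day 7. As a share of the NMDA genes on day 7, Grin2d made up 17.2%, 11.3% and 16.1% in lasered retinas, against 24.6%, 24.3% and 19.9% in control retinas, without overlap.

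Grin3b, another NMDA subunit, was at or near 0 in the day 3 table. It had 73, 50 and 105 reads in lasered retinas on day 7 and 78, 59 and 43 in control retinas. The values on day 3 were 0, 3 and 0 reads in lasered retinas and 0 reads in each of the 3 control retinas. Grin2a, also under the filter, had 41, 53 and 72 reads in lasered retinas on day 3, against 107, 93 and 101 in control retinas, which did not overlap. Fitted without the filter on low values, Grin2a differed by -0.34 ± 0.17 on day 3, with an unadjusted p of 0.0801 by limma. For 1 kb of exon length, 3 reads amount to a signal of 0.292 to 0.380 on day 7 and of 0.445 to 0.605 on day 3, a floor that covers counting error only.

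Kainate receptors serve OFF bipolar cells, where the subunit of Grik1 is a known marker. Grik1 had 27.3, 46.0 and 26.7 in lasered retinas on day 7, against 24.8, 30.9 and 30.6 in control retinas. Day 3 values were 44.7, 34.1 and 32.3 in lasered retinas, against 29.6, 33.8 and 38.1 in control retinas. Both days overlapped, with log2 differences of 0.17 ± 0.24 on day 7 and 0.12 ± 0.17 on day 3.

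Grik5 had 108, 62.9 and 101 in lasered retinas on day 7, against 105, 82.0 and 97.4 in control retinas. Its log2 difference was -0.09 ± 0.22, with lasered replicate 2 below all other libraries. Grik4, which also encodes a high-affinity subunit, had 2.92, 3.86 and 2.81 in lasered retinas on day 7, against 3.07, 2.10 and 2.37 in control retinas, with a difference of 0.26 ± 0.24. Grik3 differed by 0.03 on day 7.

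On day 3 Grik2 had 1.63, 1.61 and 1.58 in lasered retinas, against 1.17, 1.00 and 1.46 in control retinas. The groups did not overlap, and the log2 difference was 0.24 ± 0.18 (adjusted p = 0.454). Grik1 supplied 92.8% to 93.2% of the kainate signal in lasered retinas on day 3 and 93.9% to 94.9% in control retinas, whereas on day 7 Grik5 supplied 53.3% to 75.2% in lasered retinas and 68.1% to 76.1% in control retinas.

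**Figure D4:**
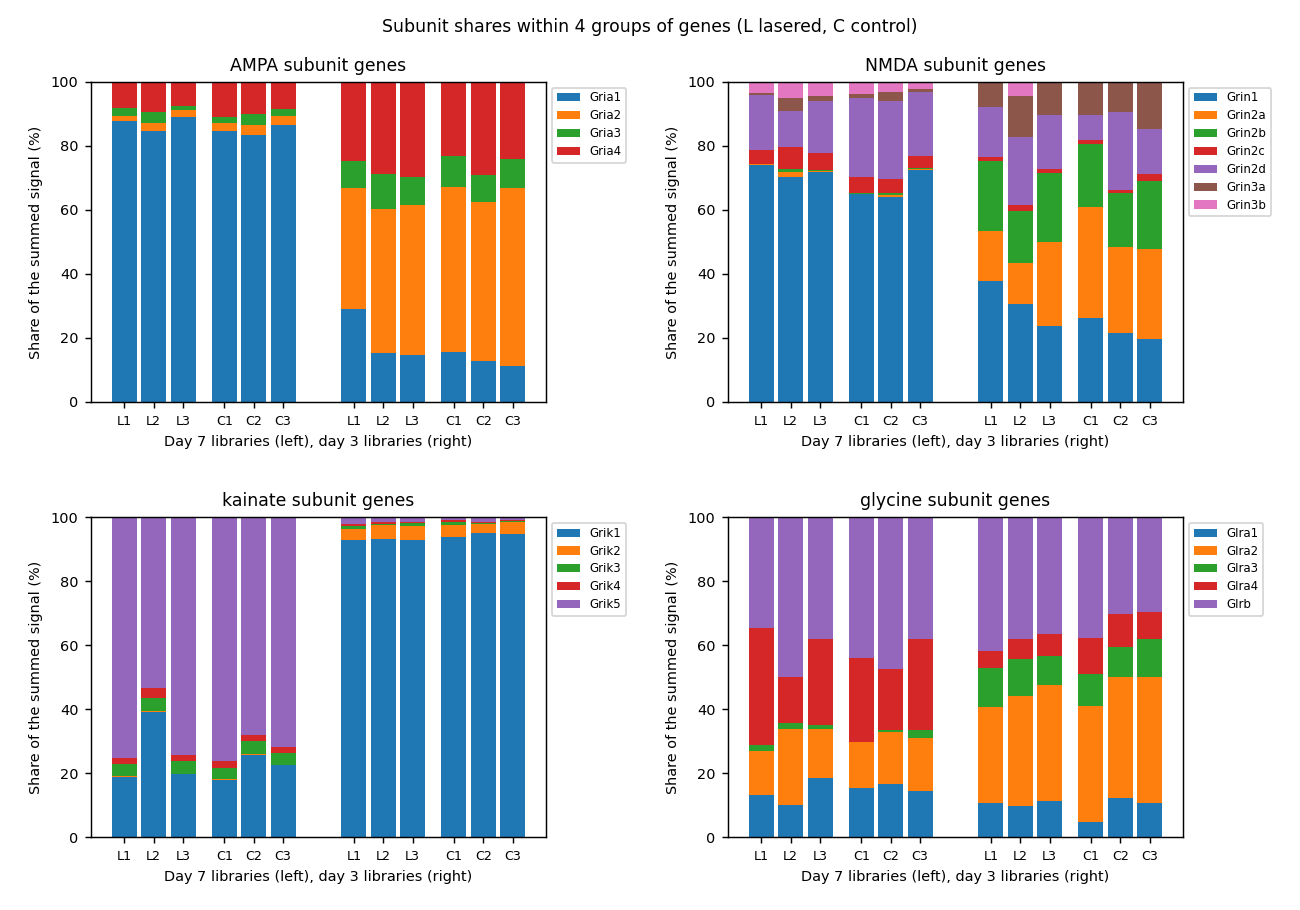
Stacked bars give the share (%) of each subunit gene in the summed signal of its group, for the AMPA, NMDA, kainate and glycine receptor genes, in each library (L lasered, C control), with day 7 on the left and day 3 on the right of each panel. Gria1 and Grik5 make up most of their groups on day 7, while Gria2 and Grik1 are the largest on day 3 in every library.

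Metabotropic glutamate receptors signal through G proteins. The group III receptor of Grm6 (chromosome 11, 50850685 to 50866208, mm10) is the light-signalling receptor of ON bipolar cells. It had 130, 126 and 150 in lasered retinas on day 7, against 118, 103 and 144 in control retinas. On day 3 it had 9.15, 11.6 and 10.7 in lasered retinas, against 13.8, 12.0 and 14.0 in control retinas. The groups overlapped on day 7 and did not on day 3, where all lasered libraries were lower.

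The log2 difference of Grm6 was 0.16 ± 0.16 on day 7 and -0.31 ± 0.15 on day 3, with an adjusted p of 0.249 on day 3. The 95% interval on day 3 reached from -0.66 to 0.03. With the trend of each library against GC content removed, an alternative chosen after seeing the data, the day 3 value was -0.58 ± 0.15, with an unadjusted p of 0.0058 and an adjusted p of 0.178 by limma.

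Grm4, a group III receptor known from transmitter release sites, had 10.2, 8.22 and 10.02 in lasered retinas on day 7, against 10.6, 11.1 and 10.7 in control retinas. The groups did not overlap, with a log2 difference of -0.17 ± 0.18. Grm7 and Grm8, of the same group, differed by 0.12 and 0.05 on day 7 and by -0.05 and -0.25 on day 3.

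Of group I, Grm5 had 3.59, 4.04 and 4.49 in lasered retinas on day 3, against 3.68, 4.70 and 5.49 in control retinas, with overlap and a difference of -0.15 ± 0.18. Of group II, Grm2 had 21.6, 12.4 and 23.1 in lasered retinas on day 7, against 21.1, 17.9 and 20.6 in control retinas, with a difference of -0.10 ± 0.25. Here too lasered replicate 2 was the lowest library.

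Among members under the filter on day 3, lasered retinas lay wholly above controls in Grm2, Grm4 and Grik5, among others. The share of all genes under the filter that lay wholly above or below was not counted. These named genes have GC contents of 56.9% to 61.7%. Fitted genes at 55% or more had median deviations of 0.29, 0.19 and 0.04 in the lasered libraries of day 3. In its controls they were -0.27, -0.13 and -0.11. The part of this shift in the named genes was not tested. Grm2 had 22, 32 and 15 reads in lasered retinas, against 11, 17 and 11 in control retinas, where the library with 15 reads is also one of the shallower ones. Counting error is large at the 9 to 34 reads a library of Grm2, Grm4, Grik5 and Grin2d. Fitted without the filter, Grm2 differed by 0.32 ± 0.15, Grik5 by 0.32 ± 0.17, Grm4 by 0.17 ± 0.11 and Grin2d by 0.05 ± 0.18, with unadjusted p between 0.0794 for Grm2 and 0.767 for Grin2d by limma. That fit held 44 members, of which 0 were called and 1 had an unadjusted p under 0.05. Over its 34387 genes, 4055 higher and 559 lower in lasered retinas had such a p.

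GABA-A channels are built from alpha, beta and gamma or delta subunits. Gabra3, an alpha subunit, had 2.58, 10.8 and 2.67 in lasered retinas on day 7, against 3.17, 7.07 and 3.24 in control retinas. Its day 3 values were 11.2, 13.2 and 11.8 in lasered retinas, against 8.35, 10.5 and 11.6 in control retinas. Replicate 2 was the highest of each group on day 7, and the groups overlapped on both days.

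The difference of Gabra3 was 0.04 ± 0.52 on day 7 and 0.24 ± 0.16 on day 3. Gabra2 had 6.60, 9.14 and 13.2 in lasered retinas on day 3, against 10.96, 9.78 and 14.0 in control retinas, with overlap and a difference of -0.27 ± 0.25, the furthest from 0 of the 11 GABA-A genes fitted that day.

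Gabrd, the subunit of channels outside synapses, had 42.9, 40.7 and 32.7 in lasered retinas on day 7, against 44.1, 34.3 and 33.3 in control retinas. Day 3 values were 8.10, 13.6 and 12.6 in lasered retinas, against 10.2, 14.997 and 12.2 in control retinas. The groups overlapped on both days, with differences of 0.06 ± 0.18 on day 7 and -0.13 ± 0.23 on day 3. Of the other GABA-A genes fitted on day 3, Gabra5 differed by -0.27, Gabrb2 by -0.12, Gabra4 by -0.07, Gabrg1 by -0.01 and Gabrb1 by 0.17.

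Gabra6, a subunit known from cerebellar granule cells, had 0 reads in all 12 libraries. Gabra4, Gabrb1 and Gabra5 each overlap a gene on the opposite strand. The sources used here do not say whether reads were counted by strand, so the values of these 3 genes may share reads with their partners.

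Gabrr1 and Gabrr2 had the highest mean signal of all members in the controls of both days. Gabrr1 (chromosome 4, 33132521 to 33163588, mm10) had 199, 247 and 199 in lasered retinas on day 7, against 181, 182 and 213 in control retinas. On day 3 it had 68.7, 115 and 109 in lasered retinas, against 123, 112 and 125 in control retinas. The groups overlapped on both days, and on day 3 lasered replicate 1 lay far below the rest.

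Its log2 difference was 0.16 ± 0.14 on day 7 and -0.33 ± 0.21 on day 3. Without lasered replicate 1 the day 3 value was -0.09, so this library set most of it. Gabrr2, also on chromosome 4, had 175, 194 and 180 in lasered retinas on day 7, against 174, 116 and 206 in control retinas, and a difference of 0.18 ± 0.21. Its day 3 values were 109, 127 and 133 in lasered retinas, against 119, 132 and 139 in control retinas, and a difference of -0.09 ± 0.14.

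Gabrr3 had 3.67, 9.10 and 3.39 in lasered retinas on day 7, against 3.20, 3.69 and 4.29 in control retinas. The values on day 3 were 8.43, 11.7 and 9.79 in lasered retinas, against 14.3, 9.58 and 14.9 in control retinas. Both days overlapped, with differences of 0.33 ± 0.36 on day 7 and -0.33 ± 0.21 on day 3. Without lasered replicate 2 the day 7 value was -0.06.

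Glycine receptors join alpha subunits with the beta subunit of Glrb, which anchors them at synapses. Glrb (chromosome 3, 80843599 to 80913660, mm10) had the lowest unadjusted p of a member on day 3. It had 11.4, 11.9 and 12.81 in lasered retinas on day 3, against 10.1, 7.85 and 10.01 in control retinas. Every lasered library lay above every control, and the difference was 0.34 ± 0.15, with a 95% interval from -0.01 to 0.69, an unadjusted p of 0.0541 and an adjusted p of 0.224 by limma.

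On day 7 Glrb had 2.58, 12.6 and 3.54 in lasered retinas, against 4.26, 9.38 and 3.79 in control retinas. The groups overlapped, with replicate 2 the highest in each, and the difference was -0.08 ± 0.55. Glra4 had 1.41, 1.91 and 2.37 in lasered retinas on day 3, against 3.02, 2.63 and 2.77 in control retinas. All lasered libraries were lower, with a difference of -0.41 ± 0.19 (adjusted p = 0.243), which was -0.28 without lasered replicate 1.

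Glra1 had 0.972, 2.52 and 1.73 in lasered retinas on day 7, against 1.497, 3.27 and 1.45 in control retinas, and a difference of -0.15 ± 0.34. Day 3 values were 2.93, 3.00 and 3.95 in lasered retinas, against 1.26, 3.13 and 3.59 in control retinas, and a difference of 0.29 ± 0.29. The groups overlapped on both days. Glra2 differed by 0.13 on day 7 and -0.06 on day 3, Glra4 by -0.03 on day 7, and Glra3 by 0.13 on day 3.

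Several of these genes moved with 1 library, and this too followed base composition. In lasered replicate 2 of day 7, all 15 fitted members with a GC content under 50% lay above their mean over the 6 libraries, and all 7 with 55% or more lay below it. Glra2 was 1.17 log2 units above and Grin2d 1.24 below. Over the 29 members the deviation and the GC content had an r of -0.930 in this library.

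In the other 5 libraries of day 7 r was 0.798 and 0.822 in lasered replicates 1 and 3, and 0.848, -0.413 and 0.426 in controls 1, 2 and 3. On day 3 it lay between -0.115 and -0.027 in lasered and between -0.257 and 0.636 in control retinas. The 29 members of a day share their library and its depth, so these are descriptions. Over all 15592 genes of day 7, r in lasered replicate 2 was -0.651, so the pattern was not limited to receptor genes. Over all 16786 genes of day 3, r was 0.103, 0.255 and -0.048 in lasered replicates 1, 2 and 3. In controls 1, 2 and 3 of that day it was -0.154, 0.029 and -0.218. The fitted members of day 3 reach a GC content of only 54.8% (Grm6), so they do not cover the GC-rich range.

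**Figure D5:**
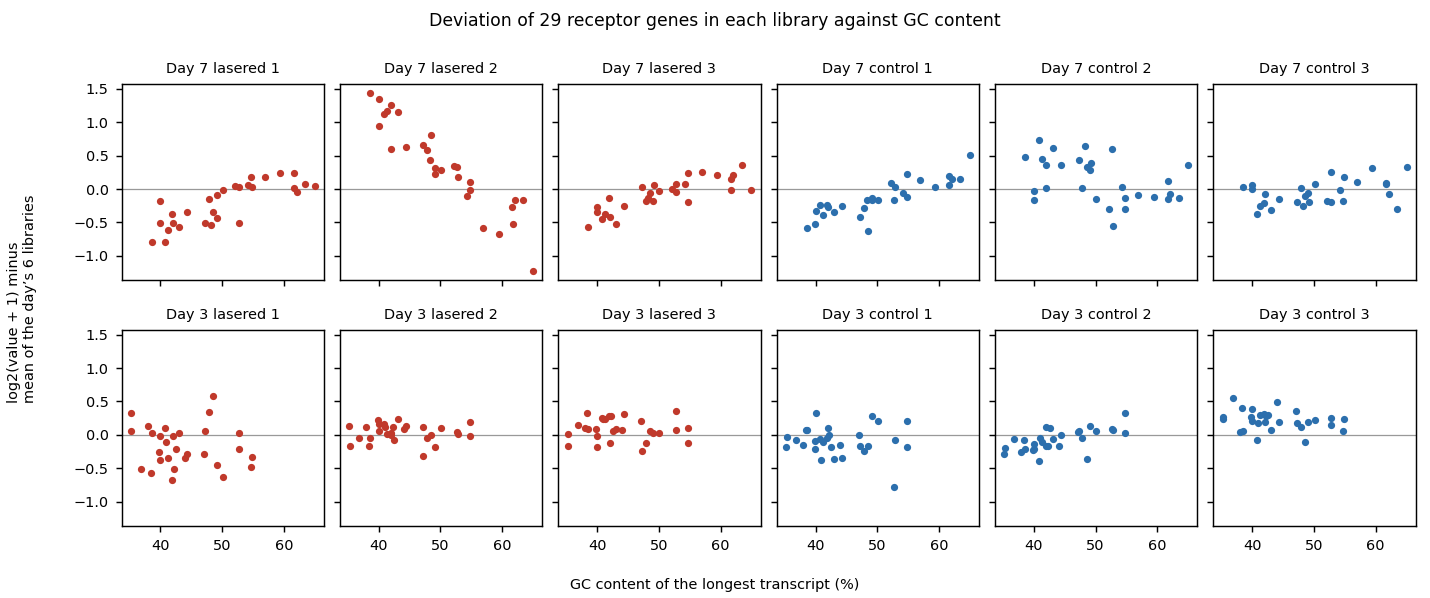
Each panel is 1 library, with the GC content of the 29 fitted receptor genes on the x axis and their log2(value + 1) minus the mean over the 6 libraries of the day on the y axis, for day 7 above and day 3 below. Lasered replicate 2 of day 7 runs steeply downward. The day 3 libraries stay within about 0.8 log2 units of 0, but no gene fitted that day has a GC content above 54.8%. Control 2 of day 3 has an r of 0.636.

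With the GC trend of every library removed, an alternative chosen after seeing the data, the median standard error of the 29 members fell to 0.193 on day 7, against 0.307 as deposited. No member was called on either day, and the smallest adjusted p was 0.384 on day 7 and 0.178 on day 3. Grin2d was -0.57 ± 0.16 on day 7, with an unadjusted p of 0.0073 and an adjusted p of 0.384 by limma.

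On day 3, 3 of 29 members had an unadjusted p under 0.05 in that fit, namely Grm6, Glra4 and Gabrr2, all with lower values in lasered retinas. Of all 16786 genes in it, 1422 lower and 1951 higher had such a p, so these 3 do not set the members apart from the table. Glra4 was -0.57 ± 0.19 and Gabrr2 -0.31 ± 0.13, with adjusted p values of 0.202 and 0.246.

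Whether the difference between lasered and control retinas was itself different on day 7 and day 3 was tested as an interaction over the 12 libraries. Of 37 members fitted, 0 were called, where 0% of the 17611 genes fitted were called. An unadjusted p under 0.05 was found for 0 members as deposited, beside 169 genes with a positive and 1485 with a negative interaction over all genes. The smallest adjusted p of a member as deposited was 0.535. The median of the members was 0.09, beside -0.11 over all genes fitted. The count under 0.05 depended on the scaling. After quantile normalisation 5 members had such a p, all positive, beside 569 positive and 822 negative over all genes. With GC trends removed, 2 did (Grm6 and Gabrr3), both positive, beside 551 positive and 1102 negative over all genes. None was called in either.

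Grm6 came first, with 0.16 on day 7 against -0.31 on day 3, an interaction of 0.48 ± 0.22 and a 95% interval from -0.01 to 0.97. Grin2d followed with an interaction of -0.86 ± 0.42, and of -0.42 ± 0.24 with GC trends removed. It had only 9 to 34 reads a library on day 3, where the scale understates change, so the value rests mostly on day 7. The 3 rho genes had interactions of 0.48 (Gabrr1), 0.27 (Gabrr2) and 0.66 (Gabrr3). Of the 37 intervals, 16 lay within 1 log2 unit of 0, and the rest reached beyond that size.

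Summed over all 45 genes, the receptors had 831, 914 and 849 in lasered retinas on day 7, against 796, 729 and 890 in control retinas. On day 3 the sum was 453, 536 and 544 in lasered retinas, against 517, 511 and 598 in control retinas. The 2 groups overlapped on both days. The 3 rho genes alone made 403 ± 40.5 of the day 7 sum in lasered retinas and 361 ± 60.9 in control retinas.

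The partners of these receptors were described by lists from textbook knowledge. None of the 8 lists held a gene past the threshold on either day. The median log2 difference of the fitted genes was -0.03 on day 7 (12 of 13 fitted) and 0.18 on day 3 (8 of 13 fitted) for AMPA and kainate auxiliary subunits. It was -0.06 (15 of 15) and 0.08 (11 of 15) for excitatory scaffold proteins, and -0.03 (8 of 8) and 0.33 (7 of 8) for inhibitory scaffold proteins and chloride transporters. For synthesis, vesicular loading and uptake of the transmitters it was 0.11 on both days (18 and 17 of 18). For the cascade behind the Grm6 receptor it was -0.03 (12 of 12) and -0.01 (11 of 12).

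GABA-B receptors, the G protein coupled GABA receptors, had medians of -0.14 on day 7 and 0.12 on day 3, with both genes fitted. Of the delta receptors, relatives of the glutamate channels, Grid1 was fitted on day 7 alone. The 3 minor GABA-A subunits, of which Gabrp was listed at 0 in every library, were fitted on neither day.

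Within the Grm6 cascade, Gnb3, the G protein beta subunit of ON bipolar cells and cones, had 1235, 1009 and 1260 in lasered retinas on day 7, against 721, 606 and 668 in control retinas. On day 3 it had 845, 642 and 634 in lasered retinas, against 345, 436 and 352 in control retinas. Lasered retinas lay wholly above controls on both days, as 6.78% of all genes did on day 7 and 27.7% on day 3. The differences of Gnb3 were 0.81 ± 0.15 (adjusted p = 0.208) on day 7 and 0.90 ± 0.17 (adjusted p = 0.0883) on day 3. Of the fitted cascade genes, 5 were higher and 7 lower on day 7, and 5 and 6 on day 3. Trpm1, the channel that Grm6 closes, differed by 0.29 ± 0.30 on day 7 and -0.01 ± 0.16 on day 3.

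Clptm1, known to hold GABA-A receptors back inside the cell, had 9.95, 8.28 and 4.78 in lasered retinas on day 3, against 1.71, 3.86 and 2.99 in control retinas, with a difference of 1.16 ± 0.31 (adjusted p = 0.106). Among transporters, Slc6a11, a GABA carrier, differed by 0.51 ± 0.16 (adjusted p = 0.129) and Slc1a1, a neuronal glutamate carrier, by 0.65 ± 0.21 (adjusted p = 0.139) on day 3.

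Markers of the retinal cells were read beside these results. Of the neuron lists, covering rods, cones, horizontal, bipolar, amacrine and ganglion cells, no gene passed on either day. Rod markers (5 of 5 fitted) summed to between 35714 and 43312 in lasered retinas on day 7 and between 45523 and 48962 in control retinas. On day 3 they summed to 7966, 19963 and 14933 in lasered retinas, against 21111, 22593 and 17785 in control retinas. Cone markers summed to 282 in lasered replicate 1 of day 3, against 1593 and 1607 in the other lasered and 2371 to 2472 in control retinas.

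Markers of ON and rod bipolar cells, which carry Grm6 and the rho genes, summed to between 607 and 701 in lasered retinas on day 7, against between 590 and 631 in control retinas. On day 3 they summed to between 331 and 450 in lasered retinas, against between 472 and 495 in control retinas, lowest in lasered replicate 1. Their part in the Grm6 and Gabrr1 values was not tested.

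Of the list named reactive glia, all 3 genes were higher in lasered retinas on both days. The threshold was passed by 3 of 3 on day 7 (Gfap, Edn2 and Serpina3n) and by 2 of 3 on day 3 (Gfap and Edn2). Which cells made these transcripts was not tested. Gfap, the intermediate filament of reactive glia, had 164, 120 and 136 in lasered retinas on day 7, against 31.5, 34.3 and 15.2 in control retinas, a log2 difference of 2.40 ± 0.30 (adjusted p = 0.0419). All 6 microglial and macrophage genes were likewise higher on both days. Of these, 4 passed the threshold on day 7 (C1qa, C1qb, Cd68 and Csf1r) and 1 on day 3 (C1qb). On day 3, 0 of the 3 called genes kept their call with the replicate block, without the filter or with GC trends removed. The same held without any 1 of the 3 controls and without lasered replicate 3. Adjusted p with the block was 0.150 for all 3 by limma. On day 7 all 7 kept their call with the block, and 0 did without lasered replicate 3 or without control replicate 3. These rises were measured in the same libraries and fits in which no receptor gene was called. The lists were chosen with earlier results of these data known, and the rises of the called genes ran from 1.29 (Csf1r, day 7) to 4.45 (Gfap, day 3). They therefore do not show whether receptor differences of smaller size would have been called.

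Lens genes summed to 776 in lasered replicate 1 of day 7, against 3.03 and 4.15 in the other lasered and 1.95 to 3.15 in control retinas. On day 3 they summed to 200 in lasered replicate 2, against 6.34 and 1.76 in the other lasered and 0.782 to 2.33 in control retinas. Pigment epithelium genes summed to between 374 and 756 in lasered retinas on day 7 and between 245 and 718 in control retinas, and on day 3 to between 49.5 and 701 in lasered retinas and between 351 and 527 in control retinas. The part of these tissues in the receptor values was not tested.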

How the data were processed

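The 12 retina libraries are directional libraries of poly(A) RNA, per the labels' protocols. The mm10 build, edgeR 3.28.0 and STAR 2.7.0 are named per the submitters' processing notes, with no role given. For the read counter, the handling of strand and the annotation version, the sources used here give nothing. What the authors deposited is a signal for each gene, in 1 table per day, which they call TPM. Its column sums, 953049 to 1045986, differ from those of TPM, and the test planned for TPM was kept.

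Multiplying each value by the gene's exon length in GENCODE M21 gave whole multiples of 1 step per library, after a factor was taken out that repeats every 6 genes (0.962 to 1.05 on day 7, 0.955 to 1.04 on day 3). Per library, 99.75% to 99.84% of values below 20 reads were whole to within 0.05, against 10% by chance. Depths refer to the 53681 of 54367 genes with matching start and end. Floors of 3 reads and intervals cover counting error only. All columns matched a sample.

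Each day was fitted on log2(value + 1) over its 6 libraries, keeping genes that averaged 1 or more, with limma 3.58.1 under R 4.3.3. Its 2-sided moderated test took a prior variance trended on the mean. Benjamini-Hochberg adjustment ran over all genes fitted, with a threshold of 0.05. The interaction of day and laser used 12 libraries. The fit was tested on simulated data. GC content is that of the longest transcript of a gene. Sequences were read from the GENCODE M21 transcripts with Biopython 1.88, and other steps used NumPy 2.4.6, matplotlib 3.10.9 and pandas 2.3.3 under Python 3.11.15.

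On day 7, deviations from the group means correlated by 0.485, 0.559 and 0.128 between libraries of equal number. All are over 0.1, although 2 unequal pairs also passed 0.1, lasered 3 with control 1 at 0.205 and lasered 1 with control 3 at 0.118. Libraries of equal number also shared the direction of their trend against GC content over all genes. Its r was 0.464 and 0.456 for number 1, -0.651 and -0.370 for number 2, and 0.345 and 0.213 for number 3. The correlations by number therefore do not show that equal numbers mark 1 mouse. The labels give no pairing, the differences reported are those of the fit without a block, and the blocked fit is an alternative. On day 3 the deviations of libraries of equal number correlated by 0.041, 0.016 and 0.077. Pairing is unknown on both days.

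The members were chosen by symbol and not by their values, and earlier results of these data were known when members and lists were set. Members named with values in every library are any past the threshold, the 6 with the smallest p per day, in each class the highest in day 7 controls and the largest difference per day, those at 0 in at least 3 libraries of a table, and 9 fixed for their known place in the retina. Members described beyond this rule were chosen after their values were seen, and the values of some members are not reported here. Alternatives were a pseudocount of 0.1, no filter, 2 rescalings, library weights, a joint fit, the factor undone, a replicate block and leaving out each library, and, added after seeing the data, removal of each library's trend against GC content.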

Additional observations from a re-analysis of the deposited data

How the results depend on the processing

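The count of receptor genes past the threshold was 0 under each of 16 alternatives per day and 21 for the difference between days, and the smallest adjusted p of a member in any of them was 0.134, in the difference between days with library weights. Over the 24 named members, 544 alternative values held 0 changed calls. Under quantile normalisation the median difference of the fitted members on day 3 was -0.29, against -0.06 as deposited, while that of all genes fitted was -0.06, against 0.16, so the members stood below all genes under both. Median-of-ratios rescaling likewise put all genes at -0.01 on day 3 and the members at -0.22. The direction of small differences was not stable: without lasered replicate 2, 14 of 29 members changed sign on day 7. The replicate block changed no member's call and gave a smallest adjusted p of a member of 0.491 on day 7. There 1 member, with lower values in lasered retinas, had an unadjusted p under 0.05, beside 895 higher and 308 lower of all 15592 genes. The block took the calls over all genes to 53 on day 7, against 38 without it, and to 0 on day 3, against 25. Calls over all genes moved more than that: the joint fit called 1104 higher and 35 lower in lasered retinas on day 3, and library weights 105 higher and 9 lower on day 7, with 0 members among them. Without lasered replicate 1 the median of the members on day 3 was 0.03. Every leave-one-out fit gave 0 calls among the members. With 3 libraries a group, differences above 1 log2 unit could also be missed on day 7. There 19 of 29 intervals lay within that size, but the intervals are not adjusted for the number of genes fitted. A call asked for more: Csf1r, called on day 7, had an unadjusted p of 0.000101 and an adjusted p of 0.0444 by limma.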
